A study of Mus musculus with 21 samples.

Results

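Newly made RNA was followed for 7 genes of long noncoding RNA, Malat1, Neat1, Meg3, Rian, Mirg, Miat and Snhg11. They were chosen by name, as noncoding RNA genes known from neurons or from the nucleus. Earlier results of these data were known when they were chosen. They are 7 of the 24984 genes in the count table, and all 7 were among the 16959 genes with enough counts to be tested.

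RNA made over a short labelling time was measured by BrU-seq, in which cells build bromouridine into new transcripts and the labelled RNA is captured and sequenced. The cells were cortical cultures from CD1 mice at day 17 in vitro, and nothing in the labels limits them to neurons. Every culture first had 30 min with the solvent DMSO or with 25 µM MM401, a peptide-like inhibitor that keeps the histone methyltransferase MLL1 from binding WDR5. Then 40 µM bicuculline, which blocks GABA-A receptors, or water as vehicle was added, and all cultures were given 2 mM bromouridine for the final 30 min. In DMSO the groups were bicuculline at 1 h, bicuculline at 4 h and water at 4 h. In MM401 they were bicuculline and water at 1 h and bicuculline and water at 4 h. For DMSO no 1 h water libraries were analysed here. The 1 h bicuculline group in DMSO was therefore set against water at 4 h, and its time and its treatment differ together. Each group had 3 biological replicates of mixed sex. Replicate 3 of MM401 water 4 h held 316741 counts and was left out by rule, which leaves 2 libraries there and 20 in all.

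Both nuclear bodies and imprinting are represented. Malat1 RNA gathers in nuclear speckles, where splicing factors are stored, and Neat1 RNA is the scaffold on which paraspeckles are built. Meg3, Rian and Mirg lie one after the other in the imprinted Dlk1-Dio3 domain, are made from the maternal chromosome, and carry within and between them many small nucleolar RNA and microRNA genes. Miat, also called Gomafu, forms its own nuclear bodies in neurons and binds splicing regulators, and Snhg11 is a small nucleolar RNA host gene.

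Positions are those of the count table, on mouse build mm10. Malat1 is at chr19:5795689-5802672 and Neat1 at chr19:5824709-5845480, both on the minus strand and 22.0 kb apart. Meg3 is at chr12:109540995-109571729, Rian at chr12:109603944-109661711 and Mirg at chr12:109734980-109749457, all on the plus strand. Miat is at chr5:112213227-112228948 on the minus strand and Snhg11 at chr2:158375637-158386145 on the plus strand. The table counts reads over the whole span of a gene, introns included. RefSeq (GRCm38.p6, the same build) classes all 7 as lncRNA genes.

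The promoters of 3 members are shown: Malat1, the member with the highest level, and Meg3 and Rian, neighbours on one strand that were measured side by side. Of these only Rian was called in a comparison. Each window runs 5′ to 3′ on the gene's strand, from 250 bases before to 50 bases after the RefSeq start, and is taken from RefSeq GRCm38.p6. Capitals mark TGACG, the short form of the CRE motif that CREB binds, read on either strand (CGTCA on the other). The Malat1 window is chr19:5802623-5802922 (minus strand), the Meg3 window chr12:109540746-109541045 (plus strand) and the Rian window chr12:109603695-109603994 (plus strand).
Malat1: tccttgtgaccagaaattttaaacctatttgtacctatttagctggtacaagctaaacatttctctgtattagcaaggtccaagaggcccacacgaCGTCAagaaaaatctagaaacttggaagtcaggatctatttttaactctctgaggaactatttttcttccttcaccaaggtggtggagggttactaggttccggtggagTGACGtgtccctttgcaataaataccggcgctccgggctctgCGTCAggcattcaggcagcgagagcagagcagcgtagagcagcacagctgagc
Meg3: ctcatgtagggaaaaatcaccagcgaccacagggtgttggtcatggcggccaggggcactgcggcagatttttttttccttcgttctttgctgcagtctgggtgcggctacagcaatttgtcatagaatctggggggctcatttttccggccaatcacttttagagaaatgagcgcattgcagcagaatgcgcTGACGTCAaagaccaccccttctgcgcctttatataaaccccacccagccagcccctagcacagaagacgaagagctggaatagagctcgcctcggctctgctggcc
Rian: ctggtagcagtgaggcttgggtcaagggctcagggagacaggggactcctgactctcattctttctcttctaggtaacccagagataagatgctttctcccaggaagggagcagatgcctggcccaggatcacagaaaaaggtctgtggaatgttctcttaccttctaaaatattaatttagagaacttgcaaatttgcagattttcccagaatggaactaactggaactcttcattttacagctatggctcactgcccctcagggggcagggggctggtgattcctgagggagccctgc
The Malat1 window held 3 copies of TGACG, 2 of them on the opposite strand. In the Meg3 window 2 copies overlap on opposite strands and make up the full palindrome TGACGTCA. The Rian window held none, and neither did those of Mirg, Miat and Snhg11. TGACG was found in 20.8% of all 32851 promoter windows and TGACGTCA in 1.79%. The AP-1 site TGANTCA, in 7.81% of all windows, and the MEF2 site, in 0.557%, were in none of the members' windows. The CArG box, in 1.63% of all windows, was in a second Meg3 window and in no other. Both strands were searched throughout. Neat1 had no window in the table used. A match describes letters only, not a bound site.

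MicroRNAs of the imprinted locus are shown because genes of those between the hosts gave counts of their own. Genes of those shown from inside Mirg held none. RefSeq places 3 mature microRNAs within Meg3, 6 within Rian and 19 within Mirg. From the start of Meg3 to the end of Mirg it holds 105 mature microRNAs of 57 genes with 97 different seeds. Below are 4 of the 19 inside Mirg, and the 3p arm from each of the 6 microRNA genes between Rian and Mirg that rose at 4 h of bicuculline in DMSO. All 10 were picked for display after the values were seen. Capitals mark the seed, bases 2 to 8.
miR-453: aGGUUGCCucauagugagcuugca
miR-496a-5p: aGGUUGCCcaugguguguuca
miR-369-3p: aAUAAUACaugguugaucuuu
miR-410-3p: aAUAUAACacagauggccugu
miR-379-3p: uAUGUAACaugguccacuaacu
miR-380-3p: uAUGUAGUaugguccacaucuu
miR-543-3p: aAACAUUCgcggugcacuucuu
miR-495-3p: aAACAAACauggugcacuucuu
miR-654-3p: uAUGUCUGcugaccaucaccuu
miR-376b-3p: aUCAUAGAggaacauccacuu
Inside Mirg, miR-453 and miR-496a-5p share the seed GGUUGCC. The other 8 shown differ in seed from one another, and the seed of miR-379-3p, AUGUAAC, is also that of miR-411-3p of the same cluster. The counts at the genes of the last 6 come from bromouridine-labelled RNA and do not measure the mature microRNA.

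Before the members, the libraries. The 20 libraries held 49886348 to 87939384 counts each, and the scaling factors (TMM, edgeR) ran from 0.895 to 1.16. Fos, Npas4 and Bdnf, genes that neuronal activity induces, rose with bicuculline in all 4 comparisons with water, by 1.18 to 4.44 on the log2 scale (edgeR, adjusted p at most 2.57e-05). Summed markers of GABAergic neurons (3 of 3 measured) were 483 to 675 CPM (the usual per-million scale, counts over TMM-scaled library size) in the 12 bicuculline libraries and 317 to 378 in the 8 water libraries. Glutamatergic markers (3 of 3) gave 165 to 262 against 226 to 264 CPM over both times. At 4 h they were lower in every bicuculline library than in every water library, at 165 to 212 against 226 to 252 CPM in DMSO and 181 to 204 against 239 to 262 CPM in MM401. Neuron markers (5 of 5) gave 5350 to 7194 against 4523 to 5673 CPM and astrocyte markers (5 of 5) 569 to 847 against 414 to 696 CPM. Oligodendrocyte lineage markers (5 of 5) gave 162 to 183 against 137 to 157 CPM, with Mog at no more than 0.206 CPM. Microglia markers (5 of 5) gave 23.4 to 39.9 against 25.1 to 33.1 CPM over both times, and at 4 h 31.1 to 36.6 against 26.0 to 30.1 CPM in DMSO and 35.3 to 39.9 against 25.1 to 28.5 CPM in MM401. Endothelial markers (4 of 4 in the table, 3 with enough counts to be tested) were at most 3.46 CPM, with Cldn5 at no more than 0.0449 CPM. No marker was at 0 in all libraries. The sums weigh high genes most. Gad2 was the highest GABAergic marker, with Slc32a1 at most 6.69 CPM, and Syt1 the highest neuron marker, with Tubb3 at most 21.7 CPM. The direction of each single marker is not given here. In bulk RNA fewer cells of a type and less RNA per cell cannot be told apart. The TMM factors of bicuculline libraries differed from those of water by −0.188 (1 h) and −0.272 (4 h) in DMSO and by −0.214 and −0.0753 in MM401 (log2), so fold changes are higher by about that much than with plain library sizes. Replicate 1 of DMSO water 4 h stood apart from the other libraries of its group at several members, and the DMSO results of Malat1, Rian, Meg3, Miat and Snhg11 are given without it too. Where 1 library of MM401 water 4 h is left out, a single library remains in that group, which the fit takes to vary like the libraries of the other groups.

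Per kilobase of gene, Malat1 was far above the other members. Its mean over the 20 libraries was 1461 CPM per kb, the second highest of the 16959 genes tested, and it took 0.812% to 1.28% of all counts in a library. Meg3 followed at 33.4 CPM per kb (rank 14) and Snhg11 at 30.0 (rank 16). Rian was at 7.60, Miat at 5.798, Mirg at 3.78 and Neat1 at 3.19 CPM per kb, which is still rank 979. The 3 genes of the imprinted domain thus lay on a falling scale along the strand, from Meg3 through Rian to Mirg. Counts in single libraries ran from 2400 for Neat1 to 923514 for Malat1.

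That spread differed between members. The pooled SD within groups, on the log2 scale, was 0.304 for Meg3 and 0.290 for Miat, 0.209 for Snhg11, 0.174 for Rian, 0.151 for Malat1, 0.135 for Neat1 and 0.109 for Mirg. A change of a given size was therefore easier to detect in Mirg and Neat1 than in Meg3 and Miat.

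**Figure D1:**
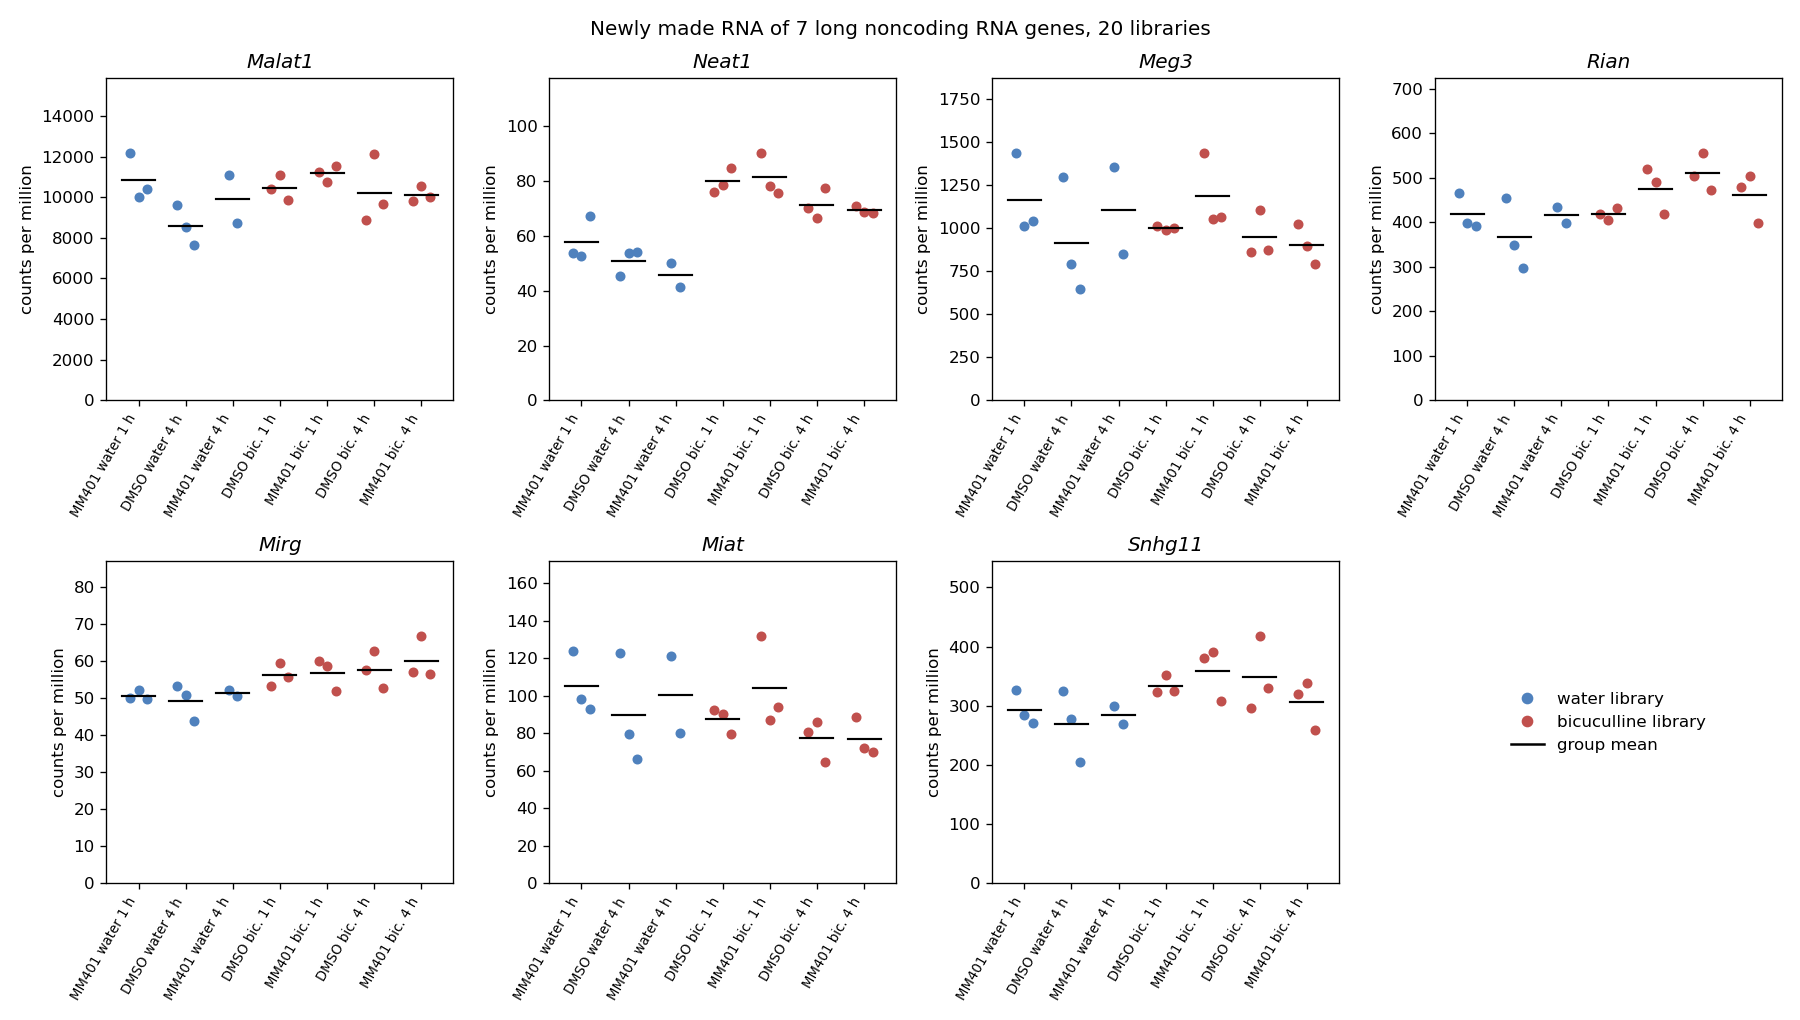
CPM (vertical axes, from 0, TMM-scaled) of each of the 7 genes in every one of the 20 libraries, by group (horizontal axes), with water libraries in blue, bicuculline libraries in red and group means as black lines. For Neat1 the 4 bicuculline groups lie above the 3 water groups, with means of 69.3 to 81.4 against 45.6 to 57.9, while for Meg3 and Miat the libraries of one group are widely spread.

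Neat1 rose with bicuculline in both solvents and at both times. Its libraries in water at 4 h in DMSO read 45.2, 53.6 and 54.1 CPM. At 1 h of bicuculline in DMSO they read 76.1, 78.6 and 84.8 CPM, and at 4 h 70.2, 66.5 and 77.5 CPM. All 6 bicuculline libraries in DMSO lay above all 3 water libraries. In MM401, water gave 53.8, 52.6 and 67.4 CPM at 1 h and 49.99 and 41.3 CPM at 4 h. Bicuculline gave 90.3, 78.2 and 75.6 CPM at 1 h in MM401 and 70.9, 68.6 and 68.2 CPM at 4 h. Here too no bicuculline library overlapped the water libraries of its own time, although 1 water library at 1 h, at 67.4 CPM, was above the lowest bicuculline library of all, 66.5 CPM in DMSO at 4 h.

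The differences for Neat1 were 0.65 ± 0.097 (log2, SE) at 1 h in DMSO (edgeR quasi-likelihood test, adjusted p = 2.11e-05) and 0.48 ± 0.097 at 4 h (adjusted p = 0.000324). In MM401 they were 0.49 ± 0.097 at 1 h (adjusted p = 0.000423) and 0.60 ± 0.11 at 4 h (adjusted p = 0.000185). In fold, these are 1.56, 1.40, 1.40 and 1.52. Across all genes tested the share called in either direction was 44.6% and 49.2% in DMSO and 39.9% and 44.6% in MM401, at 1 h and 4 h respectively, so a call as such was common among genes. The call was lost in 2 comparisons with plain library sizes in place of TMM, where the Neat1 difference was 0.20 (adjusted p = 0.127) at 4 h in DMSO and 0.27 (adjusted p = 0.0523) at 1 h in MM401. In each of these 4 comparisons the summed GABAergic and oligodendrocyte lineage markers were higher in every bicuculline library than in every water library. The ranges overlapped for neuron markers at 1 h in DMSO (5525 to 5922 against 4523 to 5673 CPM) and for astrocyte markers at 4 h in DMSO (577 to 656 against 444 to 666 CPM), and lay higher with bicuculline in the other 3 comparisons of each. Glutamatergic markers were lower and microglia markers higher without overlap at 4 h in both solvents, and both overlapped at 1 h. The part of these markers in the Neat1 difference was not tested.

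In order of group means, Neat1 was highest in MM401 bicuculline 1 h (81.4 ± 7.8 CPM, SD, n = 3), then DMSO bicuculline 1 h (79.8 ± 4.5), DMSO bicuculline 4 h (71.4 ± 5.6) and MM401 bicuculline 4 h (69.3 ± 1.5). Then came MM401 water 1 h (57.9 ± 8.2), DMSO water 4 h (51.0 ± 5.0, n = 3) and MM401 water 4 h (45.6 ± 6.2, n = 2). Neighbours in this order overlapped everywhere except at the step from bicuculline to water. Between 1 h and 4 h of bicuculline the difference was −0.16 ± 0.096 in DMSO (adjusted p = 0.217) and −0.23 ± 0.096 in MM401 (adjusted p = 0.0717), neither past the threshold. In water in MM401, 4 h against 1 h gave −0.34 ± 0.11 (edgeR, adjusted p = 0.182). This was −0.49 without replicate 1 of MM401 water 4 h and −0.20 without replicate 2.

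Malat1, the neighbour of Neat1 on the same strand, was not called in any comparison. In DMSO its water libraries read 9614, 8550 and 7633 CPM, its 1 h bicuculline libraries 10380, 11100 and 9851 CPM and its 4 h bicuculline libraries 8880, 12150 and 9650 CPM. In MM401 the water libraries were 12190, 10010 and 10390 CPM at 1 h and 11090 and 8714 CPM at 4 h, against 11260, 10770 and 11530 CPM and 9807, 10530 and 10000 CPM with bicuculline. The 1 h bicuculline group in DMSO lay above all its water libraries, and the other 3 pairs of groups overlapped. The differences were 0.28 ± 0.13 (adjusted p = 0.0892) and 0.25 ± 0.13 (adjusted p = 0.123) in DMSO, and 0.04 ± 0.13 (adjusted p = 0.829) and 0.03 ± 0.15 (adjusted p = 0.885) in MM401. Without replicate 1 of DMSO water 4 h the DMSO values were 0.37 (adjusted p = 0.0249) and 0.34 (adjusted p = 0.0370). The lowest with 1 library left out were 0.22 at 1 h (adjusted p = 0.248, without replicate 3 of the water group) and 0.11 at 4 h (adjusted p = 0.557, without replicate 2 of the bicuculline group). DESeq2 called both DMSO values (0.32, adjusted p = 0.0128, and 0.27, adjusted p = 0.0342), and with plain library sizes they were 0.10 (adjusted p = 0.444) and −0.02 (adjusted p = 0.897). The 4 h value in MM401 ran from −0.17 to 0.19 with 1 water library left out. Per kb, the log2 ratio of Neat1 to Malat1 was −9.40 to −8.71 in the 8 water libraries, with a median of −9.22, and −9.09 to −8.43 in the 12 bicuculline libraries, with a median of −8.68. On the far side of Neat1, 5.49 kb away, Frmd8 rose at 1 h in DMSO by 0.26 ± 0.094 (adjusted p = 0.0255) and was not called in the other 3 comparisons.

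Newly made RNA of genes that encode proteins of the bodies of Neat1 and Malat1 was counted as well. Of 19 tested genes of paraspeckle and speckle proteins, 1 rose and 4 fell at 1 h in DMSO, 6 rose and 4 fell at 4 h in DMSO, 3 rose and 1 fell at 1 h in MM401, and 5 rose and 4 fell at 4 h in MM401. That is 26.3%, 52.6%, 21.1% and 47.4% of the list in either direction, beside 44.6%, 49.2%, 39.9% and 44.6% of all genes. Their median differences were 0.0255, 0.0518, 0.0485 and 0.0602, beside −0.0382, −0.0237, −0.00178 and 0.0160 over all genes. Taf15, an RNA-binding protein, rose at 4 h by 0.73 ± 0.076 in DMSO (adjusted p = 5.6e-08) and by 0.53 ± 0.085 in MM401 (adjusted p = 3.1e-05). Srrm2, a core protein of nuclear speckles, rose at 1 h in MM401 by 0.39 ± 0.11 (adjusted p = 0.00929). Hnrnpm rose at 1 h in DMSO by 0.12 ± 0.047 (adjusted p = 0.0451). Nudt21, a subunit of the cleavage factor that chooses polyadenylation sites, fell by 0.39 ± 0.078 at 1 h in DMSO (adjusted p = 0.000315) and by 0.35 ± 0.079 at 1 h in MM401 (adjusted p = 0.00125). Srsf2 fell by 0.43 ± 0.086 at 4 h in DMSO (adjusted p = 0.000231).

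In the imprinted domain, Rian rose at 4 h of bicuculline in DMSO. Its libraries there read 503, 556 and 473 CPM, against 455, 348 and 297 CPM in water. The highest water library, replicate 1, was still below the lowest bicuculline library. The difference was 0.48 ± 0.12 (adjusted p = 0.00345), a fold of 1.39. Leaving out 1 library at a time it ran from 0.32 (adjusted p = 0.0367, without replicate 3 of the water group) to 0.66 (adjusted p = 3.66e-05, without replicate 1 of the water group), and with plain library sizes it was 0.22 (adjusted p = 0.0408). With the library of 316741 counts in the fit it was 0.46 (adjusted p = 0.141), past no threshold. In the same libraries neuron markers (6693 to 7194 against 4523 to 5673 CPM) and GABAergic markers (633 to 675 against 317 to 335 CPM), with those of microglia and of the oligodendrocyte lineage, were higher with bicuculline and glutamatergic markers lower, all without overlap, while astrocyte markers overlapped. Their part in the Rian difference was not tested.

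At 1 h in DMSO Rian read 418, 405 and 433 CPM, between its water libraries, with a difference of 0.19 ± 0.12 (adjusted p = 0.226), or 0.38 (adjusted p = 0.00706) without replicate 1 of the water group and 0.08 (adjusted p = 0.655) without replicate 3. In MM401 it read 466, 397 and 391 CPM in water and 519, 491 and 418 CPM with bicuculline at 1 h. The difference was 0.19 ± 0.12 (adjusted p = 0.253), or 0.12 without replicate 1 of the bicuculline group and 0.28 without replicate 3. At 4 h in MM401 Rian read 434 and 399 CPM in water and 479, 503.6 and 398 CPM with bicuculline, a difference of 0.14 ± 0.14 (adjusted p = 0.434). This value ran from 0.05 (without replicate 2 of the water group) to 0.24 (without replicate 3 of the bicuculline group) with 1 library left out, and was 0.38 (adjusted p = 0.235) with the library of 316741 counts and 0.06 (adjusted p = 0.638) with plain library sizes. Both MM401 pairs of groups overlapped. The difference between solvents in the 4 h response was −0.34 ± 0.19 (log2, MM401 minus DMSO; edgeR interaction, adjusted p = 0.390), with a 95% interval of −0.73 to 0.05. Without replicate 1 of DMSO water 4 h it was −0.52 (adjusted p = 0.0356), without replicate 3 of that group −0.204 (adjusted p = 0.719), and with the library of 316741 counts −0.08 (adjusted p = 0.970). The call of a difference between solvents thus came only without that first library among the alternatives tried. From 1 h to 4 h of bicuculline in DMSO, Rian differed by 0.29 ± 0.12 (adjusted p = 0.0840) and the libraries did not overlap, as for 43.3% of all genes.

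Mirg rose at 4 h of bicuculline in both solvents. In DMSO its libraries read 53.3, 50.8 and 43.8 CPM in water and 57.5, 62.8 and 52.8 CPM at 4 h of bicuculline, and the lowest bicuculline library lay just below the highest water library. In MM401 they read 52.2 and 50.6 CPM in water and 57.0, 66.8 and 56.5 CPM at 4 h, with no overlap. The differences were 0.23 ± 0.080 in DMSO (adjusted p = 0.0217) and 0.23 ± 0.090 in MM401 (adjusted p = 0.0451), a fold of 1.17 in each. In both solvents neuron, GABAergic, microglia and oligodendrocyte lineage markers were higher and glutamatergic markers lower at 4 h of bicuculline without overlap, and astrocyte markers were higher without overlap in MM401. The part of these markers in the Mirg difference was not tested. The Mirg calls did not hold under every alternative. In DMSO the call was lost without replicate 2 of the bicuculline group (0.16, adjusted p = 0.129) or replicate 3 of the water group (0.12, adjusted p = 0.227). In MM401 it was lost without replicate 2 of the bicuculline group (0.14, adjusted p = 0.222) and without either water library (0.23, adjusted p = 0.151 without replicate 1, and 0.17, adjusted p = 0.282 without replicate 2). With plain library sizes the 4 h value in DMSO changed sign, to −0.04 (adjusted p = 0.633), and in MM401 it was 0.15 (adjusted p = 0.150). The call ended as well with the library of 316741 counts in the fit (0.21, adjusted p = 0.341 in DMSO, and 0.29, adjusted p = 0.216 in MM401), in DMSO with the groups compared alone (0.21, adjusted p = 0.0847) and in MM401 with DESeq2 (0.22, adjusted p = 0.0652).

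At 1 h Mirg read 53.1, 59.5 and 55.7 CPM with bicuculline in DMSO, a difference of 0.19 ± 0.080 from water at 4 h (adjusted p = 0.0590). In MM401 at 1 h it read 60.03, 58.7 and 51.9 CPM against 50.02, 52.2 and 49.7 CPM in water, a difference of 0.17 ± 0.080 (adjusted p = 0.103). With plain library sizes the 1 h value was 0.0025 in DMSO (adjusted p = 0.981) and −0.05 in MM401 (adjusted p = 0.629), and without replicate 3 of the water group it was 0.13 in DMSO (adjusted p = 0.228). The 1 h value was called in DMSO with DESeq2 (0.23, adjusted p = 0.0312), with the replicate number as a block (0.19, adjusted p = 0.0148) and without replicate 1 of the water group (0.25, adjusted p = 0.0212), replicate 2 of it (0.24, adjusted p = 0.0475) or replicate 1 of the bicuculline group (0.23, adjusted p = 0.0459). In MM401 it was called with the block (0.16, adjusted p = 0.0366), with the groups alone (0.17, adjusted p = 0.0485) and without replicate 3 of the bicuculline group (0.24, adjusted p = 0.0305). At 1 h in both solvents the lowest bicuculline library lay below the highest water library. By group means, Mirg was ordered with all 4 bicuculline groups, 56.1 to 60.1 CPM, above all 3 water groups, 49.3 to 51.4 CPM.

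Meg3, the first of the 3 along the strand, was called in no comparison. In DMSO it read 1297, 790 and 645 CPM in water, 1012, 989 and 998 CPM at 1 h of bicuculline and 859, 1107 and 872 CPM at 4 h. In MM401 it read 1433, 1009 and 1040 CPM in water at 1 h, 1356 and 851 CPM in water at 4 h, 1437, 1053 and 1064 CPM with bicuculline at 1 h and 1022, 895 and 789 CPM at 4 h. The highest library was replicate 1 in every group but DMSO bicuculline 4 h, where it was replicate 2. The differences from water were 0.13 ± 0.24 (95% interval −0.37 to 0.64) and 0.06 ± 0.24 (−0.45 to 0.56) in DMSO, and 0.03 ± 0.24 (−0.47 to 0.53) and −0.29 ± 0.26 (−0.85 to 0.27) in MM401. Adjusted p-values (edgeR) were 0.677, 0.869, 0.936 and 0.393. Without replicate 1 of DMSO water 4 h the DMSO values were 0.48 (adjusted p = 0.0806) and 0.40 (adjusted p = 0.139), and without replicate 3 of that group they were −0.05 (adjusted p = 0.903) and −0.17 (adjusted p = 0.598). The 4 h value in MM401 was −0.62 (adjusted p = 0.129) without replicate 2 of the water group and 0.06 (adjusted p = 0.905) without replicate 1. With intervals this wide a change of the size seen in Rian was not detectable in Meg3.

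The ratio of Rian to Meg3 within a library was higher at 4 h of bicuculline in DMSO than in water, with no overlap of libraries. The log2 ratio of Rian to Meg3, both in CPM per kb, was −2.42, −2.09 and −2.03 in DMSO water at 4 h and −1.68, −1.91 and −1.79 with bicuculline at 4 h. In MM401 at 4 h it was −2.553 and −2.002 in water and −2.004, −1.74 and −1.899 with bicuculline, and the groups overlapped at their nearest libraries. At 1 h of bicuculline the ratio was −2.19, −2.20 and −2.12 in DMSO, and −2.38, −2.01 and −2.26 in MM401 beside −2.53, −2.26 and −2.32 in MM401 water at 1 h. On the linear scale the ratio of Rian to Meg3, averaged over the libraries of a group, was 0.289 and 0.272 in the 4 h bicuculline groups and 0.194 to 0.223 in the other 5 groups. The difference in mean log2 ratio at 4 h was 0.39 in DMSO (exact two-sided permutation test over libraries, p = 0.1) and 0.40 in MM401 (exact p = 0.2), and 0.1 is the smallest p that 3 libraries against 3 allow. The MM401 value was 0.12 without replicate 1 of the water group and 0.67 without replicate 2, and so rests on which of the 2 water libraries it is set against. The DMSO value was 0.27 to 0.46 with 1 library left out. At 1 h the difference was 0.01 in DMSO and 0.15 in MM401 (exact p = 1 and 0.5). With 1 library left out these ran from −0.10 to 0.090 in DMSO and from 0.050 to 0.23 in MM401. Adjusted over the 16 tests of this kind (4 ratios in 4 comparisons), exact p-values were at least 0.4. The ratio of Mirg to Rian in DMSO was lower at 4 h, at −1.13, −1.15 and −1.17 against −1.10, −0.78 and −0.76 in water (exact p = 0.1), and in MM401 it overlapped (−1.08, −0.92 and −0.82 against −1.06 and −0.98).

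**Figure D2:**
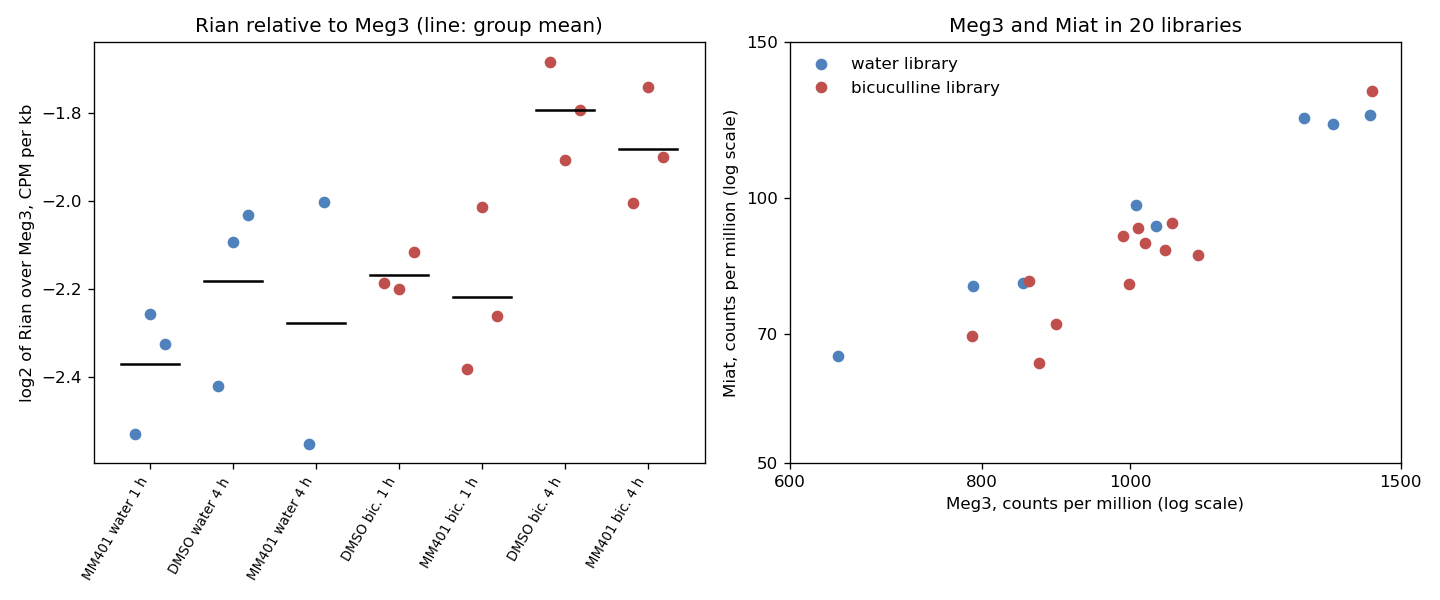
Left, the log2 ratio of Rian to Meg3 (CPM per kb, vertical axis) in each library by group (horizontal axis), with black lines at group means: the 4 h bicuculline groups have means of −1.79 and −1.88 and the other groups −2.17 to −2.37. Right, Miat against Meg3 in CPM, both axes logarithmic, 1 point per library, with water libraries in blue and bicuculline libraries in red; Pearson's r of the log2 values is 0.919 over 20 libraries.

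Small genes between the hosts were counted too. In the 32.2 kb between Meg3 and Rian 12 small or predicted genes on the plus strand were tested, and in the 73.3 kb between Rian and Mirg 27. At 4 h of bicuculline in DMSO, 2 of the 12 and 6 of the 27 rose and none fell, beside 49.2% of all genes called. Of all genes 23.7% rose and 25.5% fell there, so rises were no more frequent among these small genes than over all genes. Of the 27 between Rian and Mirg 26 lay above 0, with a median of 0.40 and a median SE of 0.249, beside −0.0237 over all genes. At 4 h in MM401 none of these 27 was called, 20 lay above 0, and the median was 0.203, beside 0.0160 over all genes. Of all genes 23.0% rose and 21.7% fell in that comparison. At 1 h 1 of the 27 was called in each solvent, higher, and 21 in DMSO and 25 in MM401 lay above 0, with medians of 0.24 and 0.294. Of the 12 between Meg3 and Rian 11 and 10 lay above 0 at 1 h in DMSO and MM401 (medians 0.404 and 0.373, 2 called higher in each), and 10 and 5 at 4 h. Their 4 h medians were 0.380 in DMSO and −0.114 in MM401, where Mir434 fell by 0.55 ± 0.21 (SE; adjusted p = 0.0384). Total counts over the 20 libraries were 99 to 2368 for a small gene between Rian and Mirg.

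The 6 microRNA genes between Rian and Mirg that rose at 4 h in DMSO, named after their values were seen, lie 168 to 183 kb from the start of Meg3. Mir379 rose by 0.62 ± 0.20 (adjusted p = 0.0145), Mir380 by 0.65 ± 0.25 (adjusted p = 0.0336) and Mir543 by 0.92 ± 0.34 (adjusted p = 0.0289). Mir495 rose by 0.61 ± 0.20 (adjusted p = 0.0167), Mir654 by 0.66 ± 0.19 (adjusted p = 0.00689) and Mir376b by 1.21 ± 0.48 (adjusted p = 0.0413). These are the genes of the last 6 sequences printed above. Mir673, which starts 0.26 kb past the end of Meg3, rose in 3 of the 4 comparisons, by 0.78 ± 0.30 and 1.07 ± 0.30 at 1 h and 4 h in DMSO and by 1.105 ± 0.30 at 1 h in MM401 (adjusted p = 0.0410, 0.00480 and 0.00533). At 4 h in MM401 it was −0.10 ± 0.35 (adjusted p = 0.833).

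**Figure D3:**
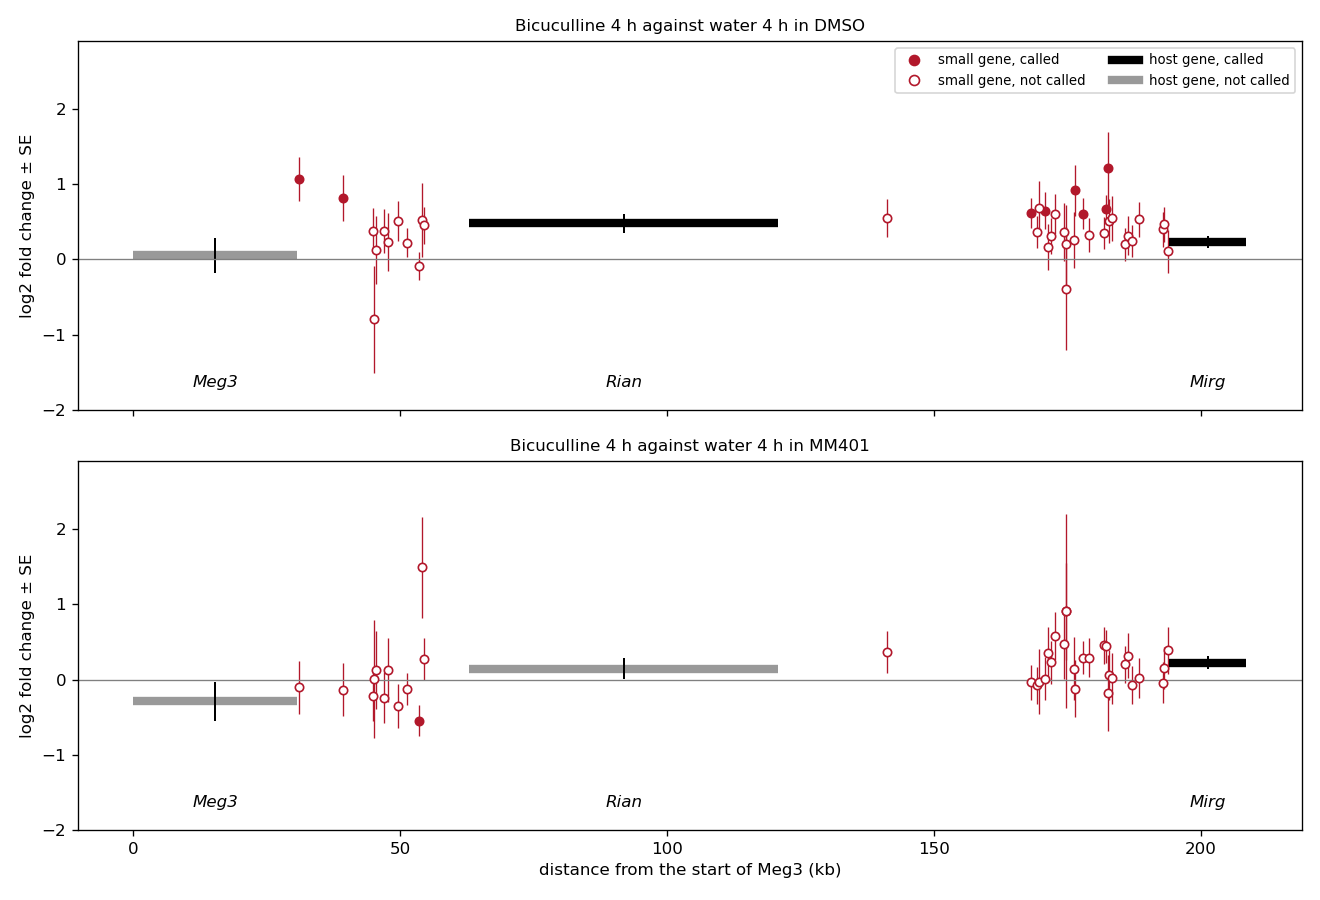
Log2 fold change with SE (vertical axis) of Meg3, Rian and Mirg, drawn as bars over their spans, and of the small plus-strand genes between them, drawn as points, against the distance from the start of Meg3 in kb, at 4 h of bicuculline in DMSO (upper) and in MM401 (lower). In DMSO the values are 0.06 over Meg3, 0.48 over Rian and 0.23 over Mirg, and 26 of 27 points between Rian and Mirg lie above 0.

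Genes that lie inside a host on its own strand held no counts at all. There were 10 such genes inside Rian and 10 inside Mirg, covering 1.31% and 5.50% of the span, 1 inside Meg3 (Mir770, 0.309%) and 1 inside Malat1 (Mascrna, 0.845%), and each was listed at 0 in every library. The table thus gives no value for these hosted microRNAs. Between Meg3 and Rian, Mir136 held 1095 counts over the 20 libraries inside Rtl1, a gene of the opposite strand that held 486, while Mir433, inside a gene of its own strand, held 0.

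Other genes of the Dlk1-Dio3 region were measured alongside. Dlk1, expressed from the paternal chromosome and 77.7 kb before Meg3, rose in all 4 comparisons: by 1.75 ± 0.28 and 0.99 ± 0.29 in DMSO at 1 h and 4 h (adjusted p = 2.82e-05 and 0.00731), and by 1.16 ± 0.27 and 1.05 ± 0.33 in MM401 (adjusted p = 0.00145 and 0.0138). Its level was low, 0.340 CPM in DMSO water against 1.199 CPM at 1 h of bicuculline. Rtl1, the paternal gene 3.61 kb before Rian on the opposite strand, rose in DMSO by 0.90 ± 0.30 at 1 h (adjusted p = 0.0171) and 1.15 ± 0.29 at 4 h (adjusted p = 0.00220), and was not called in MM401. Of 9 tested genes in and around the region, 3 rose and 2 fell at 1 h in DMSO, 2 and 5 at 4 h, 1 and 4 at 1 h in MM401 and 1 and 5 at 4 h. That is 55.6%, 77.8%, 55.6% and 66.7% of this short list, beside the 44.6%, 49.2%, 39.9% and 44.6% of all genes given above. Slc25a29, a mitochondrial amino acid carrier, fell by 1.099 ± 0.17 at 4 h in DMSO (adjusted p = 1.14e-05), the list's largest fall in each of the 4 comparisons. The nearest tested genes past Rian and before Mirg, Mir882 and Mir668, were not called at 4 h, and Mir882 rose at 1 h in MM401 by 0.72 ± 0.26 (adjusted p = 0.0345). The nearest past Mirg, 698 kb away, Ppp2r5c was at 0.03 ± 0.051 at 4 h in DMSO and −0.04 ± 0.057 in MM401 (adjusted p = 0.696 and 0.633).

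Of 19 tested imprinted genes outside this region, 12 rose and none fell at 1 h in DMSO (edgeR), 13 rose and 1 fell at 4 h in DMSO, 13 rose and none fell at 1 h in MM401, and 13 rose and 2 fell at 4 h in MM401. Of all genes 20%, 23.7%, 18.1% and 23.0% rose in these comparisons, and 24.5%, 25.5%, 21.8% and 21.7% fell. The medians of the list were 0.363, 0.391, 0.497 and 0.489, beside −0.0382, −0.0237, −0.00178 and 0.0160 over all genes. Peg10, a retrotransposon-derived gene of the paternal chromosome, rose by 2.33 ± 0.094 at 1 h in DMSO (adjusted p = 2.02e-14), and Plagl1, a zinc finger transcription factor, by 2.12 ± 0.11 at 4 h in DMSO (adjusted p = 9.93e-12). Dhcr7, which makes cholesterol, fell by 0.50 ± 0.068 at 4 h in DMSO (adjusted p = 2.89e-06). For comparison, the differences of Meg3, Rian and Mirg in these 4 comparisons lay between −0.29 and 0.48.

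Miat was called in no comparison. In DMSO it read 123, 79.5 and 66.2 CPM in water, 92.5, 90.5 and 79.8 CPM at 1 h of bicuculline and 80.6, 86.2 and 65.0 CPM at 4 h. In MM401 it read 124, 98.2 and 92.8 CPM in water at 1 h, 121 and 80.0 CPM in water at 4 h, 132, 87.2 and 93.8 CPM with bicuculline at 1 h and 88.9, 71.9 and 69.8 CPM at 4 h. All pairs of groups compared overlapped, and replicate 1 was the highest in each group except DMSO bicuculline 4 h. The differences were −0.03 ± 0.23 and −0.21 ± 0.23 in DMSO (adjusted p = 0.931 and 0.489) and −0.01 ± 0.23 and −0.39 ± 0.26 in MM401 (adjusted p = 0.976 and 0.247). At 4 h the 95% intervals ran from −0.72 to 0.29 in DMSO and from −0.95 to 0.17 in MM401. Without replicate 1 of DMSO water 4 h both DMSO values were above 0, at 0.27 (adjusted p = 0.346) and 0.08 (adjusted p = 0.783), and without replicate 3 of that group they were −0.19 (adjusted p = 0.579) and −0.42 (adjusted p = 0.181). The 4 h value in MM401 was −0.69 (adjusted p = 0.105) without replicate 2 of the water group and −0.08 (adjusted p = 0.877) without replicate 1. Of the proteins that bind Miat, 2 were tested: Sf1, the branch point binding protein of the spliceosome, rose in all 4 comparisons by 0.24 to 0.35 (adjusted p at most 0.00104), and the other was not called. The gene next to Miat, Tpst2, rose by 0.27 ± 0.069 at 1 h in DMSO (adjusted p = 0.00283) and was not called in the other 3. On the other side E130006D01Rik fell in all 4, most at 4 h in DMSO, by 1.18 ± 0.12 (adjusted p = 5.73e-08).

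Miat and Meg3 varied together although they lie on different chromosomes. Over the 20 libraries the Pearson correlation of their log2 CPM was 0.919, and after each group's mean was taken off it was 0.943. Each had the other as the most similar of 11816 candidate genes. The next for Meg3 were Mpped1 (0.897) and Zfp692 (0.830), and for Miat Tspoap1 (0.878) and Grin2d (0.871), an NMDA receptor subunit. Both genes were measured in the same libraries with the same scaling, and the correlations are descriptions with no test. Replicate 1 was the highest library of both genes in every group but DMSO bicuculline 4 h. Other members also deviated together within groups, such as Rian and Snhg11 (0.883), Meg3 and Rian (0.860) and Rian and Miat (0.778). Neat1 did not, with −0.25 to −0.092 against the other members.

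Snhg11 had higher means with bicuculline than with water in all 4 comparisons but passed the test in none. In DMSO it read 324, 278 and 206 CPM in water, 324, 352 and 325 CPM at 1 h of bicuculline and 296, 419 and 331 CPM at 4 h. In MM401 it read 326, 285 and 270 CPM in water at 1 h and 380, 390 and 308 CPM with bicuculline, and at 4 h 299 and 270 CPM in water and 321, 338 and 260 CPM with bicuculline. In each pair the groups overlapped, in DMSO only through replicate 1 of the water group. The differences were 0.31 ± 0.15 (adjusted p = 0.114) and 0.37 ± 0.15 (adjusted p = 0.0543) in DMSO, and 0.29 ± 0.15 (adjusted p = 0.147) and 0.11 ± 0.17 (adjusted p = 0.648) in MM401. Without replicate 1 of DMSO water 4 h the DMSO values were 0.47 (adjusted p = 0.0283) and 0.53 (adjusted p = 0.0140), and without replicate 3 of that group 0.16 (adjusted p = 0.385) and 0.18 (adjusted p = 0.304). At 4 h it was also called without replicate 1 of the bicuculline group (0.48, adjusted p = 0.0253). Both DMSO values were called with the replicate number as a block (0.33, adjusted p = 0.0254, and 0.39, adjusted p = 0.00862) and with DESeq2 (0.35, adjusted p = 0.0416, and 0.39, adjusted p = 0.0174), and the 1 h value in MM401 with the groups alone (0.29, adjusted p = 0.0303). With plain library sizes they were 0.13 (adjusted p = 0.405) and 0.11 (adjusted p = 0.485) in DMSO, and 0.07 (adjusted p = 0.679) and 0.03 (adjusted p = 0.899) in MM401. The 4 h value in MM401 was 0.0010 (adjusted p = 0.999) without replicate 2 of the water group and 0.21 (adjusted p = 0.367) without replicate 3 of the bicuculline group. Its neighbour Snhg17, another small nucleolar RNA host gene, 14.1 kb away on the opposite strand, fell in all 4, by 0.52 ± 0.092 and 0.84 ± 0.092 in DMSO and by 0.61 ± 0.093 and 0.65 ± 0.10 in MM401 (adjusted p at most 9.64e-05). On the other side Ralgapb fell by 0.22 ± 0.061 at 4 h in MM401 (adjusted p = 0.00614) and was not called in the other 3.

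**Figure D4:**
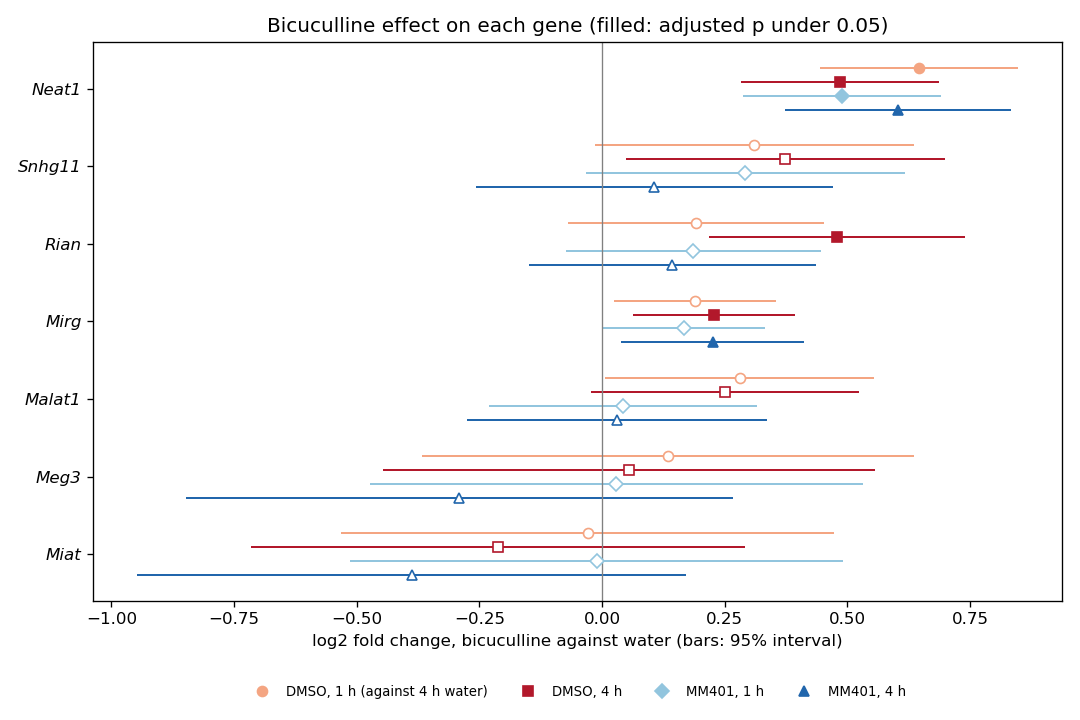
Log2 fold change of each gene with bicuculline against water (horizontal axis, bars are 95% intervals) in the 4 comparisons, with filled symbols for an adjusted p under 0.05 in edgeR. All 4 symbols of Neat1 are filled, at 0.48 to 0.65, and those of Meg3 and Miat have the widest bars, with Meg3 at −0.29 to 0.13 and Miat at −0.39 to −0.01.

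The group means of the other members were ordered with less separation. Malat1 ran from 8599 ± 992 CPM in DMSO water 4 h to 11190 ± 383 in MM401 bicuculline 1 h (SD, n = 3 each), Meg3 from 902 ± 117 in MM401 bicuculline 4 h to 1185 ± 219 in MM401 bicuculline 1 h, and Rian from 367 ± 80.96 in DMSO water 4 h to 511 ± 42.0 in DMSO bicuculline 4 h. Miat ran from 76.9 ± 10.5 CPM in MM401 bicuculline 4 h to 105 ± 16.8 in MM401 water 1 h, and Snhg11 from 269 ± 59.9 in DMSO water 4 h to 359 ± 44.9 in MM401 bicuculline 1 h. For these 5 members every pair of neighbours in the order overlapped.

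Counting the members, 1 of 7 was called at 1 h in DMSO, 3 of 7 at 4 h in DMSO, 1 of 7 at 1 h in MM401 and 2 of 7 at 4 h in MM401, all higher. The share of all genes called in either direction was 44.6%, 49.2%, 39.9% and 44.6%, with 20%, 23.7%, 18.1% and 23.0% higher and 24.5%, 25.5%, 21.8% and 21.7% lower, so that 44.9%, 48.1%, 45.4% and 51.5% of those called were higher. With plain library sizes the higher ones were 21.2%, 18.8%, 16.3% and 40.3% of those called. The members' medians were 0.192, 0.25, 0.167 and 0.106. Groups that did not overlap were found for 2, 2, 1 and 2 of the 7 members, all higher with bicuculline, beside 21.3%, 24.6%, 23.3% and 34.2% of all genes that were higher without overlap (47.4%, 52.5%, 51.1% and 66.6% in either direction). Without replicate 1 of DMSO water 4 h, 5 members were called at 1 h and 5 at 4 h in DMSO, and with the MM401 water library of 316741 counts in the fit 1 of 7 was called at 4 h in each solvent. With DESeq2 in place of edgeR the counts were 4, 5, 1 and 1. Of 40 other tested long noncoding RNA genes, 9 rose and 6 fell at 1 h in DMSO, 9 and 6 at 4 h in DMSO, 9 and 5 at 1 h in MM401 and 15 and 3 at 4 h in MM401. Among them Snhg1 rose most at 1 h in DMSO (0.81 ± 0.10, adjusted p = 2.61e-06), Rmst at 4 h in DMSO (0.63 ± 0.053, adjusted p = 2.43e-09), Snhg8 at 1 h in MM401 (1.18 ± 0.21, adjusted p = 0.000284) and Crnde at 4 h in MM401 (0.93 ± 0.17, adjusted p = 0.000171).

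MM401 against DMSO called none of the 7 in water at 4 h, at 1 h of bicuculline or at 4 h of bicuculline (edgeR; 0 members at an unadjusted p under 0.05 and 0 with DESeq2 in each). Over all genes 0.0826%, 0.00590% and 0% were called, and 12.9%, 3.18% and 7.72% had an unadjusted p under 0.05. The 14 genes called in water became 1272 without replicate 1 of DMSO water 4 h, and 0 without replicate 2 or replicate 3 of that group or replicate 2 of MM401 water 4 h. In water at 4 h the values ran from −0.16 ± 0.11 for Neat1 (adjusted p = 0.530) to 0.28 ± 0.26 for Meg3 (adjusted p = 0.656), and the libraries of every member overlapped (26.0% of all genes did not). The Neat1 value was −0.31 without replicate 1 of MM401 water 4 h and −0.018 without replicate 2. At 1 h of bicuculline the members' values ran from 0.02 ± 0.080 for Mirg to 0.25 ± 0.23 for Miat (adjusted p = 0.999 for all 7). The Miat value was 0.046 without replicate 1 of MM401 bicuculline 1 h and 0.36 without replicate 2. Meg3 libraries did not overlap there, at 1053 to 1437 CPM with MM401 against 989 to 1012 CPM with DMSO, beside 7.15% of all genes in either direction. At 4 h of bicuculline the members' values ran from −0.19 ± 0.15 for Snhg11 (adjusted p = 0.760) to 0.06 ± 0.079 for Mirg (adjusted p = 0.874), and no member's libraries were without overlap, beside 17.5% of all genes. The Snhg11 value was −0.29 without replicate 1 of DMSO bicuculline 4 h and −0.033 without replicate 2. The 95% interval of the Neat1 difference was −0.39 to 0.07 in water at 4 h, −0.17 to 0.23 at 1 h of bicuculline and −0.24 to 0.16 at 4 h. A p-value above the threshold does not show that the solvents gave equal levels.

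The interaction of MM401 and bicuculline at 4 h called no member (edgeR; 0 at an unadjusted p under 0.05, beside 15% of all genes, and 0% of all genes called). The 0 genes called became 1551 without replicate 1 of DMSO water 4 h, with Rian among them as given above, 2 without replicate 1 of MM401 water 4 h and 436 with DESeq2. Its values ran from −0.35 ± 0.35 for Meg3 (adjusted p = 0.656) to 0.12 ± 0.15 for Neat1 (adjusted p = 0.720), and 6 of 7 were below 0. Time alone called no member either. In water in MM401 0.867% of all genes, or 147, were called between 4 h and 1 h (14 without replicate 1 and 51 without replicate 2 of MM401 water 4 h, 57 and 61 without replicate 2 or 3 of MM401 water 1 h), and 1 member, Neat1, had an unadjusted p under 0.05, beside 10% of all genes. Its libraries did not overlap, as for 31.9% of all genes. Between 4 h and 1 h of bicuculline 34.2% of all genes were called in DMSO and 33.6% in MM401, and 1 member had an unadjusted p under 0.05 in each (Rian in DMSO, Neat1 in MM401), beside 42.5% and 42.2% of all genes. Other settings gave calls. In MM401 Neat1 was called with DESeq2 (−0.25, adjusted p = 0.0414), with the replicate number as a block (−0.23, adjusted p = 0.0497), with the groups compared alone (−0.25, adjusted p = 0.0147) and without replicate 3 of MM401 bicuculline 1 h (−0.31, adjusted p = 0.0314). There Miat was called with the block (−0.43, adjusted p = 0.0158, from −0.44, adjusted p = 0.175) and Meg3 with the groups alone (−0.41, adjusted p = 0.0320, from −0.39, adjusted p = 0.226). In DMSO Rian was called with the block (0.28, adjusted p = 0.0221) and with the groups alone (0.255, adjusted p = 0.0178). Libraries of Malat1, Neat1 and Meg3 in MM401 did not overlap between the 2 times, all lower at 4 h, beside 45.1% of all genes in either direction.

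Genes with the most similar profile over the 20 libraries differed between the members. For Neat1 they were Prkd1 (Pearson r = 0.948), a protein kinase, Unk (0.943) and Palld (0.939), an actin-binding protein. For Rian they were Slc8a1 (0.943), a sodium-calcium exchanger, Rims2 (0.940), a protein of the presynaptic active zone, and Cntn5 (0.934), a neuronal adhesion molecule. For Mirg they were Prepl (0.887), Adar (0.856), an enzyme that edits adenosine in RNA, and Trrap (0.855). For Snhg11 they were Kirrel3 (0.918), Kcnc2 (0.908), a potassium channel, and Snhg14 (0.902), the host transcript of another imprinted cluster. For Malat1 they included Gipr (0.817) and Meg3 (0.761). Among the members themselves, within-group deviations of Rian correlated with those of Snhg11 (0.883) and Meg3 (0.860). Those of Neat1 had correlations of −0.25 to −0.09 with every other member.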

How the data were processed

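Bromouridine-labelled RNA was sequenced as 150 bp paired-end reads from 21 mouse cortical culture libraries in 7 groups, of which 20 were used. The count table is the authors' deposited table of reads per whole gene, introns included, on mm10. Bowtie2, featureCounts, UMI-tools, DESeq2 and deepTools are named in the submitters' processing notes, with no role or version. Whether strand was used in counting is not given in the sources used here, and the table lists 412 genes at more than 1 position.

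From the counts, genes were filtered (edgeR filterByExpr, minimum count 10, minimum total 15), scaled by TMM and fitted with 1 mean per group by edgeR's robust quasi-likelihood test (edgeR 4.0.16, limma 3.58.1, R 4.3.3). P-values were adjusted by Benjamini-Hochberg over all 16959 genes, with 0.05 as threshold, in 11 comparisons. Errors of fold changes are SE and intervals are 95%. Replicates are separate by label, but nothing further says how cultures were prepared, so p-values measure the spread between these libraries. The common biological CV was 8.77%. No label says that replicate numbers mark shared cultures, so the replicate block is an alternative. Replicate pairs of a group differed by more than counting noise (chi-square per degree of freedom 6.14 to 78.5 over 19 pairs). The script was tested on simulated counts.

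The members, the gene lists and the tests were chosen with earlier results of these data known. Genes named are the members, the nearest tested gene on each side, the 3 genes of highest Pearson correlation (mean of at least 2 CPM, unnamed, microRNA and small nucleolar RNA genes left out), the called gene of largest rise and of largest fall of each list, and Fos, Npas4 and Bdnf. A few genes that this rule names are not reported here. MicroRNA genes, and list genes beyond that rule, were named after their values were seen. Alternatives were DESeq2 1.42.0, plain library sizes, no filter on low counts, the replicate number as a block, all 21 libraries, the groups compared alone, and each library left out in turn.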

Additional observations from a re-analysis of the deposited data

How the results depend on the processing

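Values are log2 fold changes of bicuculline against water, of MM401 against DMSO or of 4 h against 1 h ("between times"), or numbers of the 7 members called. Over 935 alternatives for the members' 77 differences, 106 had the other sign, 1 of them for a called value (Mirg at 4 h in DMSO) and 0 with a call in the other direction, while 30 gained a call and 13 lost one. The cause was not tested. Same-numbered libraries deviated together only weakly (10 of 27 correlations over 0.1, median 0.0885). Every pair was over 0.1 in 1 of the 10 comparisons, MM401 against DMSO at 4 h of bicuculline (0.15, 0.107 and 0.172), where the fit with the replicate block called 0 members, as without it. For Meg3 and Miat, however, replicate 1 was the highest library in every group but DMSO bicuculline 4 h. The replicate block also changed the members called in other comparisons, as given below.

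With plain library sizes 1 member was called at 4 h in DMSO, 0 at 1 h in MM401 and 1 at 4 h in MM401, and signs turned for Malat1 (−0.018 at 4 h in DMSO, −0.17 at 1 h in MM401, −0.045 at 4 h in MM401, 0.095 for MM401 at 4 h of bicuculline), Neat1 (−0.024 for MM401 at 1 h of bicuculline, 0.067 for MM401 at 4 h of bicuculline), Meg3 (−0.031 at 1 h in DMSO, −0.20 at 4 h in DMSO, −0.18 at 1 h in MM401, 0.040 for MM401 at 4 h of bicuculline), Rian (−0.029 at 1 h in MM401, 0.030 between times in MM401), Mirg (−0.044 at 4 h in DMSO, −0.049 at 1 h in MM401, −0.024 for MM401 in water, −0.036 for MM401 at 1 h of bicuculline, −0.040 between times in water, −0.046 between times in DMSO, 0.19 for the interaction), Miat (0.10 for MM401 at 4 h of bicuculline, 0.0026 for the interaction) and Snhg11 (−0.023 between times in DMSO). Between times, 39.2% of called genes were higher in DMSO and 65% in MM401, against 55.7% and 52.3% with TMM. With the replicate block 3 members were called at 1 h in DMSO, 2 at 1 h in MM401, 1 between times in DMSO and 2 between times in MM401, and signs turned for Mirg (−0.023 between times in water, 0.040 for the interaction) and Miat (0.0098 at 1 h in DMSO). With the library of 316741 counts 1 member was called at 4 h in each solvent, and signs turned for Malat1 (−0.36 for MM401 in water, 0.35 for the interaction), Meg3 (0.11 at 4 h in MM401, −0.14 for MM401 in water, 0.073 for the interaction), Rian (−0.074 for MM401 in water) and Mirg (−0.021 for MM401 in water, −0.063 between times in water, −0.0039 between times in DMSO, 0.081 for the interaction). With groups compared alone 3 members were called at 1 h in MM401, 1 between times in DMSO and 2 between times in MM401, and signs turned for Malat1 (0.0078 for MM401 at 4 h of bicuculline) and Miat (0.018 for MM401 at 4 h of bicuculline). DESeq2 called 4 members at 1 h and 5 at 4 h in DMSO, 1 at 4 h in MM401 and 1 between times in MM401, and signs turned for Rian (0.011 between times in water) and Miat (0.0027 at 1 h in DMSO, 0.017 at 1 h in MM401). It gave no adjusted p for the interaction of Neat1, Mirg and Miat.

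Leaving out 1 library at a time, the members called ranged from 1 to 5 at 1 h and 2 to 5 at 4 h in DMSO, 1 to 2 at each time in MM401, 0 to 1 between times in MM401 and 0 to 1 for the interaction. The 5 calls at each time in DMSO and the 1 call of the interaction (Rian) came without replicate 1 of DMSO water 4 h. Malat1 ranged from −0.012 to 0.13 at 1 h in MM401, from −0.17 to 0.19 at 4 h in MM401, from −0.11 to 0.13 for MM401 at 4 h of bicuculline, from −0.32 to 0.040 between times in water and from −0.17 to 0.062 between times in DMSO. Neat1 ranged from −0.054 to 0.063 for MM401 at 1 h of bicuculline, from −0.093 to 0.020 for MM401 at 4 h of bicuculline and from −0.026 to 0.26 for the interaction. Meg3 ranged from −0.045 to 0.48 at 1 h in DMSO, from −0.17 to 0.40 at 4 h in DMSO, from −0.13 to 0.21 at 1 h in MM401, from −0.62 to 0.062 at 4 h in MM401, from −0.099 to 0.62 for MM401 in water, from −0.17 to 0.059 for MM401 at 4 h of bicuculline, from −0.45 to 0.23 between times in water and from −0.69 to 0.029 for the interaction. Rian ranged from −0.066 to 0.082 between times in water and from −0.16 to 0.047 between times in MM401. Mirg ranged from −0.019 to 0.12 for MM401 in water, from −0.023 to 0.067 for MM401 at 1 h of bicuculline, from −0.024 to 0.12 for MM401 at 4 h of bicuculline, from −0.00023 to 0.054 between times in water, from −0.027 to 0.0997 between times in DMSO, from −0.013 to 0.12 between times in MM401 and from −0.084 to 0.077 for the interaction. Miat ranged from −0.19 to 0.27 at 1 h in DMSO, from −0.42 to 0.083 at 4 h in DMSO, from −0.21 to 0.13 at 1 h in MM401, from −0.16 to 0.47 for MM401 in water, from −0.12 to 0.081 for MM401 at 4 h of bicuculline, from −0.39 to 0.22 between times in water and from −0.47 to 0.16 for the interaction. Snhg11 ranged from −0.082 to 0.24 for MM401 in water, from −0.12 to 0.037 between times in water and from −0.090 to 0.17 between times in DMSO. The number of all genes called for MM401 in water was 14, and it was 4 with plain library sizes, 0 with the library of 316741 counts, 0 with groups alone, 162 with DESeq2 and 1272 without replicate 1 of DMSO water 4 h. Genes called for MM401 at 1 h of bicuculline were 1, and 4 with the replicate block and 14 with DESeq2, and at 4 h of bicuculline they were 0, and 7 with DESeq2. Between times in water they were 147, and 19 with the library of 316741 counts, 328 with groups alone and 275 with DESeq2, and with that library they were 3745 in place of 5805 in DMSO and 3646 in place of 5691 in MM401. For the interaction they were 0, and 436 with DESeq2 and 1551 without replicate 1 of DMSO water 4 h.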
